A study of Mus musculus with 18 samples.

Results

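The expression of 9 marker genes of bile duct cells and liver progenitor cells was measured in mouse livers in which the level of YAP had been lowered or raised in hepatocytes. The 9 genes were chosen by name: the keratin genes Krt8, Krt18, Krt19 and Krt7, the transcription factor gene Sox9, and Spp1, Epcam, Cd24a and Prom1. They are 9 of 23930 genes listed by a targeted panel that reads 1 amplicon per gene, and all 9 were among the 11720 genes that passed the filter on low values (at least 1 CPM, reads of a gene per M reads of the library, in at least 3 libraries). Krt7 passed with exactly 3 such libraries, all of them from pair-fed mice, 2 of Yap KO and 1 of control and none of YAP OE.

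All mice carried the Yap fl/fl alleles, those of the overexpression and control groups included. In the overexpression groups (YAP OE) the mice received AAV-TBG-YAP-P2A-EGFP at 2e11 genome copies each. In the knockout groups (Yap KO) they received AAV-TBG-Cre at 5e10 genome copies, a lower dose than that of the AAV-TBG-GFP given to controls, 2e11. TBG is a hepatocyte promoter, so the transgenes are directed to hepatocytes and not to the bile duct cells that are also present in whole liver. Virus was given at 8 weeks of age, and 2 weeks later the mice began a liquid diet with 5 days of acclimation. The ethanol-fed mice then had 4 weeks of ethanol diet and a binge of ethanol by gavage (5 g/kg, as a 33% solution), and the pair-fed mice had control diet and maltose-dextrin. Livers were taken 9 hours after the gavage. Each of the 6 groups (YAP OE, Yap KO and control, each ethanol-fed and pair-fed) had 3 libraries, 18 in all. The labels do not say that each library is a separate animal, and p-values measure the spread between libraries.

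YAP is a coactivator held in check by the Hippo kinases, and it acts on target genes through TEAD transcription factors. In liver its activity is high in bile duct cells and low in resting hepatocytes, and strong, lasting activation of YAP in mouse hepatocytes is known to give them features of duct and progenitor cells. Adult hepatocytes make keratins 8 and 18 alone, while bile duct cells add keratins 19 and 7. The question put to the data was whether the level of YAP moved hepatocytes toward such a ductal state.

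The libraries held 4.68 to 5.81 M reads (median 5.47 M), so 3 reads corresponded to 0.517 to 0.641 CPM. Yap1 stood at 143.7, 115.3 and 106.4 CPM in ethanol-fed YAP OE livers and at 57.5, 155 and 214 CPM in pair-fed YAP OE livers. It was at 4.76, 3.34 and 5.08 CPM in ethanol-fed Yap KO livers and at 15.1, 6.20 and 4.18 CPM in pair-fed Yap KO livers, against 58.1 to 66.6 CPM in ethanol-fed and 51.5 to 60.7 CPM in pair-fed controls. Pair-fed YAP OE replicate 1 thus lay within the range of the controls, while the other 5 YAP OE libraries were above it. The labels do not give the species of the YAP transgene or where the Yap1 amplicon lies relative to the floxed exon. How fully Yap1 reads the transgene or the deletion is therefore not known. Over both diets Yap1 fell by 3.15 ± 0.27 on the log2 scale (± SE) in Yap KO livers (limma, adjusted p = 4.7e-06), and its difference of 1.05 ± 0.27 in YAP OE livers missed the threshold (limma, adjusted p = 0.151). Cyr61, a YAP target encoding a matricellular protein, was higher in YAP OE than in control livers (log2 fold change 0.94 ± 0.18, limma adjusted p = 0.0415). Ctgf, the other YAP target chosen as a check, was not called (0.175 ± 0.30, limma adjusted p = 0.894). Its value was 0.72 ± 0.42 on the pair-fed diet and -0.37 ± 0.42 on ethanol (limma adjusted p = 0.678 and 0.889). Of the 19 YAP-TEAD target genes tested Cyr61 was the 1 called higher over both diets and 0 were called lower, where 0.102% of all genes were called. The fold changes of 11 of the 19 were above 0, and their median was 0.18 against -0.01 over all genes. By diet, Cyr61 was called in pair-fed YAP OE livers (1.37 ± 0.25, limma adjusted p = 0.0279) and not in ethanol-fed ones (0.52 ± 0.25, limma adjusted p = 0.569), where 0 of the 19 were called and their median was -0.02. In Yap KO livers 0 of the 19 passed the test against controls, with a median of -0.09 against 0.04 over all genes.

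The libraries also differed in sex chromosome genes. Xist was at 348 to 388 CPM in the 3 pair-fed Yap KO libraries and, in the pair-fed control group, at 373 CPM in replicate 2 and 423 CPM in replicate 3. It was at most 2.75 CPM in the other 13 libraries. In Yap KO livers diet and this pattern cannot be told apart, and the same holds for the comparison of YAP OE with Yap KO on the pair-fed diet. In controls they are partly mixed, since the ethanol-fed libraries were all low in Xist. This limit goes with each ethanol call in controls given here. The pair-fed YAP OE libraries were all low in Xist, while replicates 2 and 3 of the pair-fed controls were high. Pair-fed YAP OE against control is therefore partly mixed with this pattern as well, and so is pair-fed Yap KO against control. The limit carries over to the means over both diets or over genotypes and to the interactions, which draw on these pair-fed groups. Only the pair-fed controls held both patterns, so a term for the split in the fit is estimated from those 3 libraries alone. A call lost under that term therefore cannot decide between diet and the split.

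Keratins 8 and 18 form the paired filaments of hepatocytes and were the most deeply read of the 9 genes, with 285 to 2409 reads in a library. Their genes are neighbours on chromosome 15 and start 23874 bases apart on opposite strands, pointing away from each other. Because these 2 genes moved together across the 18 libraries, the 250 bases before each start are shown, from RefSeq on build GRCm38.p6, each 5′ to 3′ on the strand of its gene. The windows are chr15:102004343-102004592 (minus strand) for Krt8 and chr15:102027966-102028215 (plus strand) for Krt18.
Krt8: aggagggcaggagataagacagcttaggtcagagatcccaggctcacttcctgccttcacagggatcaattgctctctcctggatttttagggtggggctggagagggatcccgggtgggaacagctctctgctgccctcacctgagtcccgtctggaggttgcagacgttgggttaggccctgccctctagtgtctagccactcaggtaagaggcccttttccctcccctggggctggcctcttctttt
Krt18: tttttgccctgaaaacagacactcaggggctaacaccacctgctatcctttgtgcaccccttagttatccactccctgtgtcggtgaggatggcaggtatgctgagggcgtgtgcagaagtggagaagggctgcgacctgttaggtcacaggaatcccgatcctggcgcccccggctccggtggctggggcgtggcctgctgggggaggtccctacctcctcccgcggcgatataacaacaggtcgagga
A search of both strands found the TEAD letters GGAATG (or CATTCC) in neither window, and they occur in 12.6% of 32851 such windows of mouse genes. The AP-1 letters TGANTCA were also in neither window, and they occur in 6.75% of the windows. RefSeq's table held windows for 6 of the 9 genes. Prom1 had the AP-1 letters in both of its 2 windows, and no window of Spp1, Krt7 or Epcam held either motif. A match is not a site, and the absence of these letters from 250 bases says nothing about factors that bind elsewhere.

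Krt18 was measured at 186, 209.6 and 266 CPM in ethanol-fed and at 97.3, 256 and 170.3 CPM in pair-fed YAP OE livers. It was at 207, 188 and 437 CPM in ethanol-fed and at 151, 86.8 and 88.5 CPM in pair-fed Yap KO livers, against 121, 257 and 315 CPM in ethanol-fed and 91.0, 99.6 and 95.4 CPM in pair-fed controls. The pair-fed controls were the tightest group, and every ethanol-fed library of any genotype lay above all of them. Within a diet the ranges of YAP OE, Yap KO and control livers overlapped.

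Krt8 was at 114.8, 114.8 and 149 CPM in ethanol-fed and at 80.8, 263 and 103.4 CPM in pair-fed YAP OE livers. It was at 141, 140.3 and 337 CPM in ethanol-fed and at 134, 60.9 and 63.6 CPM in pair-fed Yap KO livers, against 84.4, 226 and 295 CPM in ethanol-fed and 82.8, 111.1 and 66.0 CPM in pair-fed controls. The same libraries were high for both keratins, among them pair-fed YAP OE replicate 2 and ethanol-fed Yap KO replicate 3. As a description, the log2 values of Krt8 and Krt18 had a Pearson correlation of 0.92 over the 18 libraries, which share group, diet and sequencing panel.

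**Figure D1:**
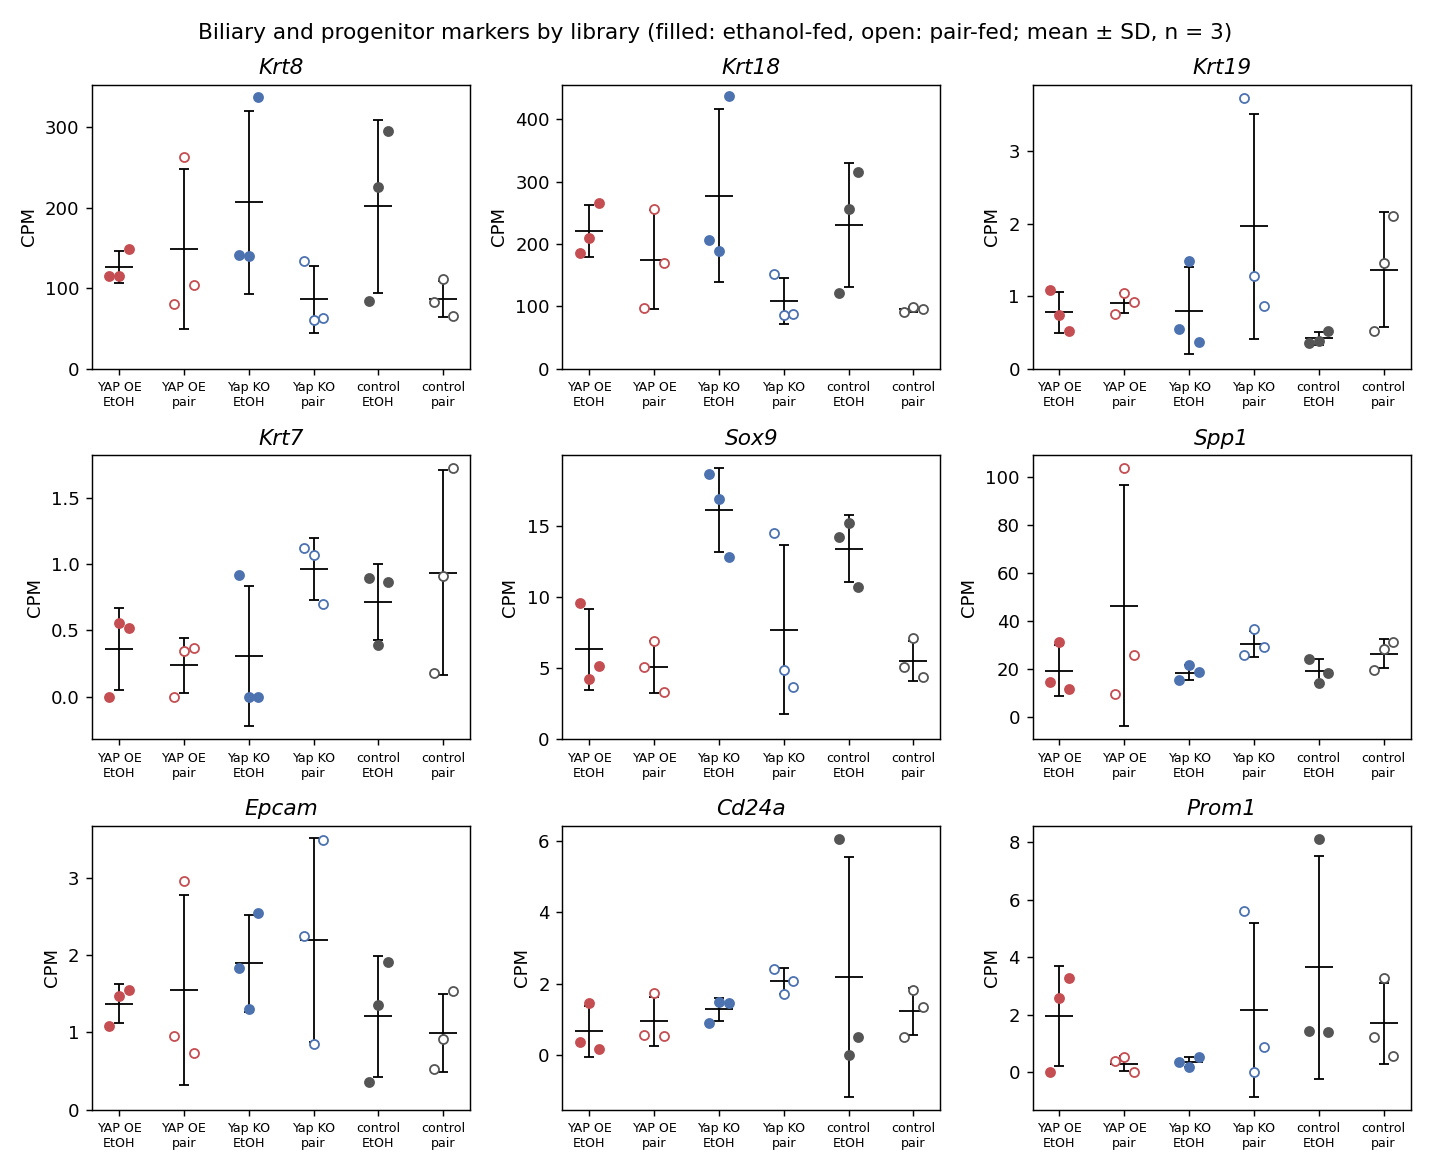
Level of each of the 9 markers in CPM (vertical axis, linear, own scale for each gene) in the 6 groups, with ethanol-fed libraries filled, pair-fed libraries open, and bars for the mean ± SD of 3 libraries. Krt18 in the pair-fed controls lies within 91.0 to 99.6 CPM, while Krt19 and Krt7 stay under 4 CPM in every library.

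The keratins that set bile duct cells apart from hepatocytes were near the floor of the assay. Krt19 was at 1.08, 0.737 and 0.517 CPM in ethanol-fed and at 0.757, 1.04 and 0.917 CPM in pair-fed YAP OE livers. It was at 0.549, 1.48 and 0.363 CPM in ethanol-fed and at 3.73, 1.28 and 0.871 CPM in pair-fed Yap KO livers, against 0.356, 0.386 and 0.521 CPM in ethanol-fed and 0.525, 1.46 and 2.10 CPM in pair-fed controls. The highest library was pair-fed Yap KO replicate 1, not a YAP OE library, and the whole range corresponds to 2 to 20 reads. Krt7 had 0 to 9 reads in a library and 0 reads in 4 libraries. It was at 0 to 0.553 CPM in the 6 YAP OE libraries and at 0 to 1.12 CPM in the 6 Yap KO libraries, against 0.175 to 1.72 CPM in the 6 controls. A change in these 2 genes would have to be large to be detectable at such a depth.

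Sox9, a transcription factor of bile duct cells and of progenitor cells at the edge of the ducts, was at 9.57, 4.24 and 5.17 CPM in ethanol-fed and at 5.11, 6.96 and 3.30 CPM in pair-fed YAP OE livers. It was at 18.7, 16.9 and 12.9 CPM in ethanol-fed and at 14.6, 4.91 and 3.66 CPM in pair-fed Yap KO livers, against 14.2, 15.3 and 10.8 CPM in ethanol-fed and 5.08, 7.12 and 4.40 CPM in pair-fed controls. The 7 highest libraries were the 6 ethanol-fed ones of Yap KO and control mice and pair-fed Yap KO replicate 1. All 6 YAP OE libraries, on either diet, lay below those 7.

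Spp1 encodes osteopontin, a secreted protein made by bile duct cells and also by macrophages. It was at 14.6, 31.5 and 11.9 CPM in ethanol-fed and at 9.65, 103.6 and 26.0 CPM in pair-fed YAP OE livers. It was at 15.4, 21.7 and 18.9 CPM in ethanol-fed and at 26.1, 36.8 and 29.1 CPM in pair-fed Yap KO livers, against 24.4, 14.5 and 18.4 CPM in ethanol-fed and 19.8, 28.5 and 31.4 CPM in pair-fed controls. Pair-fed YAP OE livers held both the lowest library (replicate 1) and the highest (replicate 2) of all 18. In replicate 2 the fibroblast collagen gene Col1a1 was also at its highest, 41.4 CPM, against 2.28 to 23.9 CPM in the other 17 libraries, and the part of other cells in the Spp1 value was not tested.

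The surface markers were low and scattered. Epcam, an adhesion molecule of bile duct epithelium, was at 0.733 to 2.96 CPM in YAP OE livers and 0.855 to 3.48 CPM in Yap KO livers, against 0.356 to 1.91 CPM in controls. Cd24a, a membrane glycoprotein of progenitor cells, was at 0.172 to 1.74 CPM in YAP OE livers and 0.916 to 2.43 CPM in Yap KO livers, against 0 to 6.06 CPM in controls. Prom1, which encodes the progenitor marker CD133, was at 0 to 3.27 CPM in YAP OE livers and 0 to 5.60 CPM in Yap KO livers, against 0.574 to 8.11 CPM in controls. For each of the 3 genes the ranges of the genotypes overlapped over both diets. When the 6 groups were ordered by mean for each gene, 3 of the 45 pairs of neighbours in these orders did not overlap: for Krt8 ethanol-fed YAP OE above pair-fed control livers, for Cd24a pair-fed above ethanol-fed Yap KO livers, and for Prom1 pair-fed control above ethanol-fed Yap KO livers. In the cases of Cd24a and Prom1 the bounding libraries held equal reads, 8 each for Cd24a and 3 each for Prom1, and differed in library total alone. The share of such pairs over all genes was not counted, so 3 of 45 is not read as few or many.

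Raising YAP did not lift these markers by an amount the test could call. Over both diets, 0 of the 9 genes passed an adjusted p of 0.05 between YAP OE and control livers in limma, where 0.102% of all genes tested did. At an unadjusted p under 0.05 there was 1 of 9 (Sox9, lower in YAP OE), where 10.4% of all genes passed, and edgeR on the recovered reads called 0. The log2 fold change was 0.39 for Krt18 (95% interval -0.15 to 0.94) and 0.05 for Krt8 (-0.62 to 0.73). For the duct keratins it was 0.03 for Krt19 (-0.48 to 0.55) and -0.46 for Krt7 (-0.97 to 0.04). These intervals leave room for changes in either direction of the size of the spread between libraries, and in bulk liver fewer cells of a type and less RNA per cell cannot be told apart.

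The other markers also missed the threshold in YAP OE against control livers. Sox9 had a log2 fold change of -0.57 (95% interval -1.13 to -0.02, limma adjusted p = 0.458), so its measured difference was toward less Sox9. The values were 0.06 for Spp1 (-0.71 to 0.84), 0.23 for Epcam (-0.34 to 0.79), -0.34 for Cd24a (-1.09 to 0.41) and -0.77 for Prom1 (-1.72 to 0.17). The median of the 9 was 0.03, beside -0.01 over all genes. Leaving out pair-fed YAP OE replicate 1, whose Yap1 was at the control level, gave 0.58 for Krt18, 0.22 for Krt8 and 0.45 for Spp1 (limma adjusted p = 0.495, 0.914 and 0.718). Leaving out replicate 2 of that group, the highest for Krt8 and Spp1, gave 0.23 for Krt18, -0.20 for Krt8 and -0.37 for Spp1 (limma adjusted p = 0.814, 0.872 and 0.68). Of the 9 genes 0 were called either way.

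On the pair-fed diet 0 of 9 passed between YAP OE and controls in limma (0.145% of all genes), with 0 of 9 at an unadjusted p under 0.05 (8.46% of all genes) and 0 by edgeR. Krt18 had a log2 fold change of 0.76 (95% interval -0.01 to 1.53, limma adjusted p = 0.599). It was 1.12 without pair-fed YAP OE replicate 1 and 0.43 without replicate 2, with limma adjusted p-values of 0.417 and 0.872. Prom1 was the 1 gene of the 9 whose libraries did not overlap in CPM (13.8% of all genes), but the highest YAP OE library and the lowest control library both held 3 reads, so that they differed in library total alone. For Spp1 the value of 0.20 also hung on single libraries of the pair-fed YAP OE group: it was 0.97 without replicate 1 and -0.67 without replicate 2, with limma adjusted p-values of 0.664 and 0.775.

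On the ethanol diet 0 of 9 passed between YAP OE and controls in limma (0.102% of all genes), with 1 of 9 at an unadjusted p under 0.05 (8.84% of all genes) and 0 by edgeR. That gene was Sox9, at a log2 fold change of -1.03 (95% interval -1.82 to -0.24, limma adjusted p = 0.38). Its 3 YAP OE libraries were all below the 3 controls, and the libraries of 15% of all genes did not overlap in this comparison.

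**Figure D2:**
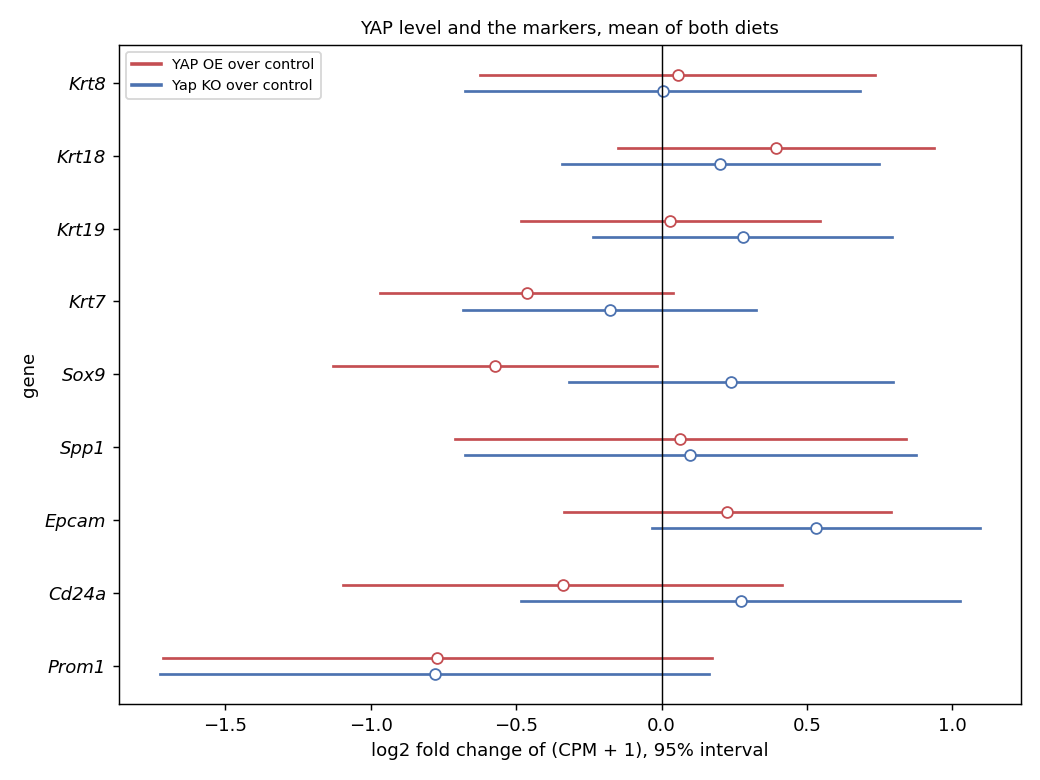
Log2 fold change of CPM + 1 (horizontal axis) for each marker, in YAP OE (red) and Yap KO (blue) over control livers as the mean of both diets, with 95% intervals from limma. The intervals span 0 for all but Sox9 in YAP OE, which lies between -1.13 and -0.02 with an adjusted p of 0.458.

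Deleting Yap gave no called change either. Over both diets 0 of 9 passed between Yap KO and control livers in limma (0.00853% of all genes), with 0 of 9 at an unadjusted p under 0.05 (6% of all genes) and 0 by edgeR. The log2 fold change was 0.20 for Krt18 (95% interval -0.34 to 0.75), 0.00 for Krt8 (-0.68 to 0.68) and 0.28 for Krt19 (-0.24 to 0.79). It was 0.24 for Sox9 (-0.32 to 0.80), 0.10 for Spp1 (-0.68 to 0.87) and 0.53 for Epcam (-0.03 to 1.09). The remaining 3 were Krt7 at -0.18, Cd24a at 0.27 and Prom1 at -0.78. The median of the 9 was 0.20, beside 0.04 over all genes, and the fold changes of 7 of 9 were above 0, which does not make them called changes.

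On the pair-fed diet 0 of 9 passed between Yap KO and control livers in limma (0.00853% of all genes), with 0 of 9 at an unadjusted p under 0.05 (3.13% of all genes), 0 by edgeR and 0 of 9 without overlap (7.06% of all genes). On the ethanol diet 0 of 9 passed in limma (0.0171% of all genes), with 1 of 9 at an unadjusted p under 0.05 (8.34% of all genes) and 0 by edgeR. The 1 gene was Prom1, at 0.366, 0.186 and 0.544 CPM in ethanol-fed Yap KO livers against 1.42, 8.11 and 1.39 CPM in ethanol-fed controls. Its libraries did not overlap, as held for 13.4% of all genes, and its log2 fold change was -1.47 (95% interval -2.80 to -0.13, limma adjusted p = 0.567) on 1 to 3 reads in each Yap KO library.

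The contrast with the widest span of Yap1 set YAP OE against Yap KO livers, where Yap1 differed by 4.20 ± 0.27 on the log2 scale (limma adjusted p = 3.3e-08). Of the 19 YAP-TEAD targets 3 (Cyr61, Amotl2 and Nuak2) were called higher and 0 lower over both diets. On ethanol 2 were called higher (Nuak2 and Wwc1), and on the pair-fed diet 1 (Cyr61). Of the 9 markers 0 passed in limma over both diets (2.72% of all genes), with 1 of 9 at an unadjusted p under 0.05 (18% of all genes) and 0 by edgeR. The 1 gene was again Sox9, lower in YAP OE, at -0.81 (95% interval -1.37 to -0.26, limma adjusted p = 0.108). On the pair-fed diet 0 of 9 passed in limma (1.37% of all genes), with 0 of 9 at an unadjusted p under 0.05 (14.3% of all genes) and 0 by edgeR. Krt7 was the 1 gene of the 9 without overlap (19.5% of all genes), with 0 to 2 reads in YAP OE against 4 to 6 reads in Yap KO libraries. It had passed the filter only through pair-fed Yap KO and control libraries, so nothing is read from this difference.

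On the ethanol diet 0 of 9 passed between YAP OE and Yap KO in limma (1.88% of all genes), with 1 of 9, Sox9, at an unadjusted p under 0.05 (15.4% of all genes) and 0 by edgeR. Sox9 averaged 6.33 ± 2.85 CPM in ethanol-fed YAP OE livers and 16.2 ± 2.97 CPM in ethanol-fed Yap KO livers (SD, n = 3 each). Its log2 fold change was -1.28 (95% interval -2.07 to -0.49, limma adjusted p = 0.089), the groups did not overlap, and neither did those of 21.4% of all genes. Sox9 was called in 2 of 18 alternative settings of this comparison, with adjusted p-values of up to 0.29 over the settings. It passed in limma with the range of the library barcode numbers as a block (adjusted p = 0.0466) and in libraries with Y-linked expression alone (adjusted p = 0.0413). All libraries compared here have Y-linked expression, so the last setting kept them all and left the fold change at -1.28.

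**Figure D3:**
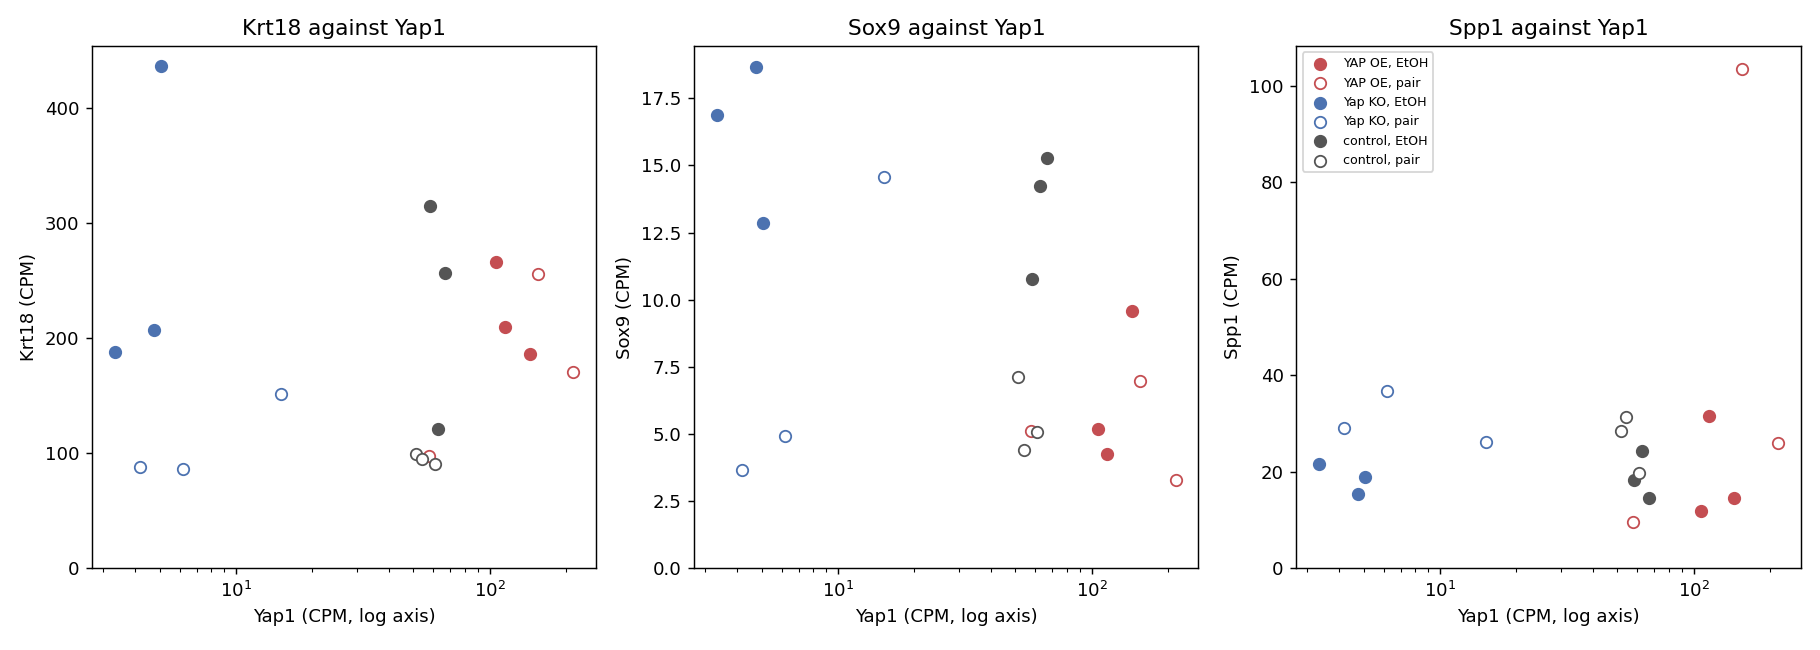
Krt18, Sox9 and Spp1 in CPM (vertical axes, linear) against Yap1 in CPM (horizontal axis, log scale) in each of the 18 libraries, coloured by genotype, with ethanol-fed libraries filled and pair-fed libraries open. The 6 YAP OE libraries do not exceed 9.57 CPM of Sox9, and the 6 ethanol-fed Yap KO and control libraries start at 10.8 CPM.

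The diets were compared within each genotype. In Yap KO livers 1 of 9 passed between ethanol-fed and pair-fed mice in limma, where 9.9% of all genes did, and it was Krt18. At an unadjusted p under 0.05 there were 3 of 9, where 26.1% of all genes passed. Krt18 averaged 277 ± 138 CPM in ethanol-fed and 108.8 ± 36.7 CPM in pair-fed Yap KO livers (SD, n = 3 each), a log2 fold change of 1.28 ± 0.37 (limma adjusted p = 0.0321), with the groups not overlapping. Krt8, at 1.22 (95% interval 0.26 to 2.18, limma adjusted p = 0.0971), and Sox9, at 1.17 (0.38 to 1.96, adjusted p = 0.0554), missed the threshold. The libraries of Krt8 and Krt18 did not overlap and were higher with ethanol, and those of Spp1 and Cd24a did not overlap and were lower, 4 of 9 in all, where 28.5% of all genes did not overlap. For Cd24a the bounding libraries both held 8 reads and differed in library total alone.

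The Krt18 call in Yap KO livers depended on single libraries. It was lost without pair-fed replicate 2 (limma adjusted p = 0.121) or 3 (0.101) and without ethanol-fed replicate 1 (0.0509) or 3 (0.129), and adjusting for the split in sex chromosome genes gave a log2 fold change of 1.38 and an adjusted p of 0.69. In this comparison diet and that split cannot be told apart, and 9.9% of all genes were called, with a median of -0.05 over all genes. The same comparison held lower macrophage markers: 8 of 12 Kupffer cell and macrophage genes tested were called lower and 0 higher, with a median of -1.35. Their summed level over 14 genes was 293 to 315 CPM in ethanol-fed and 600.5 to 740 CPM in pair-fed Yap KO livers, none of the 14 was at 0 in all libraries, and the defining marker Clec4f was at 40.5 to 47.6 CPM in ethanol-fed and 96.5 to 131.4 CPM in pair-fed Yap KO livers. The part of these cells in the Spp1, Cd24a and keratin values was not tested.

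In control livers 0 of 9 passed between ethanol-fed and pair-fed mice in limma (2.7% of all genes), with 3 of 9 at an unadjusted p under 0.05 (18.1% of all genes) and 0 by edgeR. The 3 were Krt18 at 1.16 (95% interval 0.39 to 1.93, limma adjusted p = 0.0967), Sox9 at 1.15 (0.36 to 1.94, adjusted p = 0.107) and Krt8 at 1.06 (0.10 to 2.02, adjusted p = 0.228). The libraries of Krt18 and Sox9 did not overlap and were higher with ethanol, and those of Krt19 did not overlap and were lower, 3 of 9 in all, where 22.1% of all genes did not overlap. For Krt19 the bounding libraries, pair-fed replicate 1 and ethanol-fed replicate 3, both held 3 reads and differed in library total alone. Without ethanol-fed control replicate 1, the lowest of its group, Krt18 was called, at 1.57 (limma adjusted p = 0.0285). With the split in sex chromosome genes as a term of the fit, the log2 fold change was 1.225 for Krt18 and 1.23 for Sox9, and neither was called. Those values rest on pair-fed replicate 1, the 1 pair-fed control low in Xist.

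In YAP OE livers 0 of 9 passed between ethanol-fed and pair-fed mice in limma (1.15% of all genes), with 0 of 9 at an unadjusted p under 0.05 (14.5% of all genes) and 0 by edgeR, and 0 of 9 without overlap (22.4% of all genes). The log2 fold change was -0.06 for Krt8 (95% interval -1.02 to 0.91), 0.43 for Krt18 (-0.34 to 1.196) and 0.24 for Sox9 (-0.55 to 1.02). Whether the ethanol response differed between YAP OE and control livers was tested as an interaction, and 0 of 9 passed in limma (0% of all genes), with 0 of 9 at an unadjusted p under 0.05 (7.23% of all genes) and 0 by edgeR. The differences in response were -1.12 for Krt8 (95% interval -2.48 to 0.24, limma adjusted p = 0.797), -0.73 for Krt18 (-1.82 to 0.36) and -0.92 for Sox9 (-2.03 to 0.20, adjusted p = 0.8). A weaker ethanol response of these genes in YAP OE livers was therefore not shown, and the intervals allow one. In the interaction of ethanol with Yap KO 0 of 9 passed in limma (0% of all genes), with 0 at an unadjusted p under 0.05 (5.68% of all genes) and 0 by edgeR.

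Averaged over the 3 genotypes, a comparison added after the separate responses had been seen, 2 of 9 genes passed in limma, where 20.5% of all genes did, and 4 of 9 at an unadjusted p under 0.05, where 34.8% of all genes did. Krt18 was higher with ethanol by 0.96 ± 0.21 (limma adjusted p = 0.00382) and Sox9 by 0.85 ± 0.22 (limma adjusted p = 0.0095), while Krt8, at 0.74 ± 0.26, had an adjusted p of 0.0539. Both calls ended once the split in sex chromosome genes was a term of the fit, at 1.01 for Krt18 (limma adjusted p = 0.227) and 0.92 for Sox9 (limma adjusted p = 0.292). These fold changes were not smaller than without the term. It is estimated from the pair-fed controls alone, so the lost calls cannot decide the part of the split. A share of 2 in 9 is near the share of all genes, so ethanol is not seen to act on these markers in particular.

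**Figure D4:**
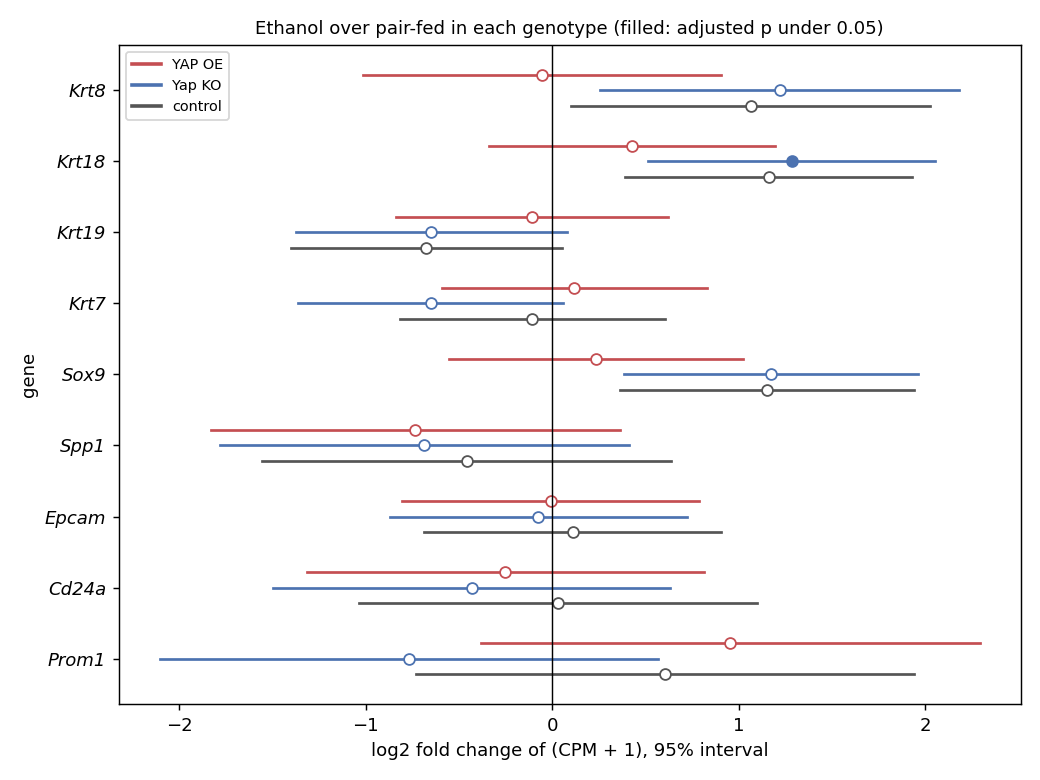
Log2 fold change of CPM + 1 (horizontal axis) with ethanol over pair-fed in YAP OE (red), Yap KO (blue) and control (grey) livers for each marker, with 95% intervals from limma and a filled point where the adjusted p is under 0.05. The 1 filled point is Krt18 in Yap KO livers, at 1.28.

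The 2 hepatocyte keratins did not keep 1 ratio, an observation made after their values were seen and given without a test. The level of Krt8 divided by that of Krt18 was 0.575 ± 0.0375 in ethanol-fed YAP OE livers, 0.733 ± 0.0462 in ethanol-fed Yap KO livers and 0.838 ± 0.125 in ethanol-fed controls (SD, n = 3 each). It was 0.821 ± 0.210 in pair-fed YAP OE livers, 0.769 ± 0.102 in pair-fed Yap KO livers and 0.905 ± 0.212 in pair-fed controls. The ethanol-fed YAP OE libraries, at 0.547 to 0.618, lay below every library of the other ethanol-fed groups, which started at 0.682. Pair-fed YAP OE livers reached down to 0.607 and overlapped them. Each gene is read by its own amplicon, so the ratio can be compared between libraries and not read as a ratio of molecules.

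**Figure D5:**
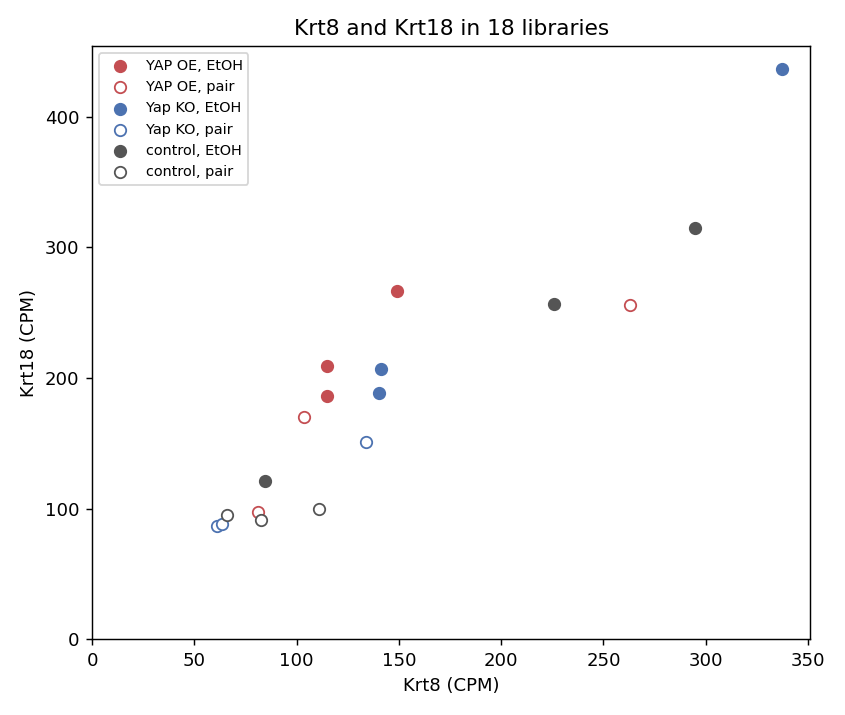
Krt18 (vertical axis, CPM) against Krt8 (horizontal axis, CPM) in each of the 18 libraries, coloured by genotype, with ethanol-fed libraries filled and pair-fed libraries open. The points follow 1 band, and the 3 ethanol-fed YAP OE libraries lie on its upper edge, where Krt8 divided by Krt18 is 0.547 to 0.618.

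The genes whose log2 levels followed a called marker most closely over the 18 libraries were found among 8456 genes with a mean of at least 5 CPM, as a description. For Krt18 they were Krt8 (Pearson correlation 0.92), Tm7sf3 (0.91) and Srxn1 (0.91). For Sox9 they were St5 (0.86), Fat1 (0.85) and Insig2 (0.85).

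Other genes of the bile duct and progenitor program were read from a list of 30, of which 29 are on the panel and 14 passed the filter. None of the 14 was called in limma between YAP OE and control livers or between Yap KO and control livers over both diets. Their median log2 fold change was 0.23 in YAP OE and 0.24 in Yap KO livers against controls, beside -0.01 and 0.04 over all genes. The fold changes of 12 of the 14 were above 0 in YAP OE and of 8 in Yap KO livers, which does not make them called changes. Pkhd1, which encodes fibrocystin of the primary cilium, was at 5.00 to 11.5 CPM in YAP OE and 2.26 to 6.93 CPM in control livers, with a log2 fold change of 0.57 ± 0.21 (limma adjusted p = 0.333). It was named after its values were seen.

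Ethanol changed a few genes of that list. Lcn2, a secreted iron-siderophore carrier also made by inflamed hepatocytes, was at 159 to 1220.0 CPM in ethanol-fed and 5.32 to 90.4 CPM in pair-fed YAP OE livers. It was at 247 to 829 CPM in ethanol-fed and 7.49 to 22.4 CPM in pair-fed Yap KO livers, and at 535 and 648 CPM in ethanol-fed control replicates 1 and 2, against 12.0 to 14.5 CPM in pair-fed controls. The lowest ethanol-fed control, replicate 3, had 611 reads, against 66 to 76 reads in pair-fed controls. The diets did not overlap in any genotype. Lcn2 rose in YAP OE livers (log2 fold change 4.81 ± 0.86, limma adjusted p = 0.0118), in Yap KO livers (5.48 ± 0.86, adjusted p = 0.000836) and in control livers (4.57 ± 0.86, adjusted p = 0.00934). Tnfrsf12a, the receptor for the progenitor mitogen TWEAK, was at 20.5 to 26.9 CPM in ethanol-fed and 7.88 to 38.6 CPM in pair-fed YAP OE livers. It was at 53.7 to 113.9 CPM in ethanol-fed and 5.41 to 11.3 CPM in pair-fed Yap KO livers, and at 19.4 to 84.7 CPM in ethanol-fed and 7.08 to 8.05 CPM in pair-fed controls. It rose with ethanol in Yap KO livers (3.14 ± 0.47, limma adjusted p = 0.000566) and control livers (2.27 ± 0.47, adjusted p = 0.014). In YAP OE livers its value was 0.48 ± 0.47 (limma adjusted p = 0.699), and the interaction with YAP OE was -1.79 ± 0.66 (limma adjusted p = 0.529).

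In Yap KO livers 2 genes of the list fell with ethanol, so that 4 of the 14 were called in either direction, where 9.9% of all genes were. With the sex chromosome genes in the fit 0 of all genes were called in this comparison, against 1160 without, and this holds for each Yap KO ethanol call given here. The term for them rests on the pair-fed controls alone, so this loss cannot decide between diet and the split. Cdh1, which encodes the epithelial adhesion molecule E-cadherin, fell by 1.40 on the log2 scale (limma adjusted p = 0.0391), and Cd44, a hyaluronan receptor of progenitor and immune cells, fell by 1.14 (limma adjusted p = 0.0175). Cdh1 was at 3.11, 13.0 and 6.53 CPM in ethanol-fed and 45.0, 12.4 and 12.0 CPM in pair-fed Yap KO livers, so the groups overlapped and 1 pair-fed library stood high. The lower macrophage markers described above moved with both values, and their part was not tested.

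Of 11 genes of the Notch and TGF-beta pathways, which specify bile duct cells in development, 0 were called between YAP OE and control or between Yap KO and control livers in limma over both diets. Tgfbr2, a TGF-beta receptor, was the 1 gene of the 11 called with ethanol. The call was made in Yap KO livers, where 9.9% of all genes were called, and in controls, where 2.7% were. A share of 1 in 11 is near that of all genes in Yap KO livers. Tgfbr2 was at 24.6 to 32.1 CPM in ethanol-fed and 11.9 to 35.0 CPM in pair-fed YAP OE livers, where its log2 fold change was 0.40 ± 0.28 (limma adjusted p = 0.568). It was at 45.9 to 63.6 CPM in ethanol-fed and 12.6 to 18.1 CPM in pair-fed Yap KO livers (1.88 ± 0.28, limma adjusted p = 0.000607), and at 46.3 to 70.0 CPM in ethanol-fed and 9.95 to 13.8 CPM in pair-fed controls (2.12 ± 0.28, limma adjusted p = 0.000798). The ethanol-fed YAP OE libraries lay below all ethanol-fed libraries of the other genotypes, but the interaction, -1.72 ± 0.40, missed the threshold (limma adjusted p = 0.195).

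Of 17 hepatocyte identity genes 0 were called in limma between YAP OE and control or between Yap KO and control livers over both diets. Their median log2 fold change was -0.24 in YAP OE livers (-0.01 over all genes) and 0.02 in Yap KO livers (0.04 over all genes). The fold changes of 5 of the 17 were above 0 in YAP OE and of 10 in Yap KO livers. Alb, which encodes albumin, was at 24640 to 26620 CPM in ethanol-fed YAP OE livers and 33320 to 48410 CPM in ethanol-fed controls. These libraries did not overlap, as held for 15% of all genes. Pair-fed, Alb was at 23600 to 26940 CPM in YAP OE and 23610 to 46750 CPM in control livers. With ethanol 2 of the 17 fell in Yap KO livers: Cebpa, a hepatocyte transcription factor, by 0.90 (limma adjusted p = 0.0327), and Ttr, the plasma carrier transthyretin, by 0.79 (limma adjusted p = 0.0196). With 9.9% of all genes called in that comparison, 2 of 17 is near the background. None of the 17 was called with ethanol in YAP OE or control livers.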

How the data were processed

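Liver RNA was read by the authors with the Ion AmpliSeq mouse transcriptome panel, per the labels' protocols. The deposited series table holds CPM for 18 libraries, and the deposited library files hold log2(RPM + 1) made with ampliSeqRNA 5.10.1.2, per the file headers. The log2 values equal log2(CPM + 1) within 2e-06. Whole reads were recovered from the deposited CPM (100% of values whole within 0.02 reads). For the aligner and build, no name is given in the sources used here.

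The tests ran on the 11720 genes that reached 1 CPM in 3 or more libraries. One mean for each of 6 groups was fitted to log2(CPM + 1) over 18 libraries with limma 3.58.1 (trend) in R 4.3.3. Fold changes are on that scale, which understates changes of low genes. Tests were two-sided with Benjamini-Hochberg adjustment over all kept genes, called under 0.05. An edgeR 4.0.16 quasi-likelihood fit to recovered reads was an alternative. The script was tested on simulated data.

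The 9 genes, the lists and the named genes (all 9, called genes of the lists, the 3 genes most like a called marker) were chosen with earlier results of these data known. Replicate numbers recur across groups, but the labels do not say that they pair samples.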

Additional observations from a re-analysis of the deposited data

How the results depend on the processing

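Of 305 counts of called markers (15 comparisons under 12 alternatives and with each of 18 libraries left out, where each applied), 289 stayed within 1.5 times the reported count and 16 did not. Of 2670 fold changes of single markers, 8 lost and 19 gained a call, and 219 turned sign, 0 of them called. Among these, Spp1 and Krt8 in YAP OE against control livers over both diets ranged from -0.37 to 0.45 and from -0.21 to 0.24. Between YAP OE and Yap KO on ethanol the count was 1 (Sox9) with the barcode range as a block and in libraries with Y-linked expression only, against 0. For ethanol in Yap KO livers it was 0 with no filter and with the sex chromosome gene term, and 2 (Krt18, Sox9) with a pseudocount of 10, TMM factors, quantile normalization or the barcode range block, against 1; leaving out single libraries gave 0 to 3. For ethanol in controls leaving out single libraries gave 0 to 1, and over all genotypes 2 to 3, with 0 under the sex chromosome gene term against 2. The cause of these shifts was not tested.

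The replicate block gave 2 (Krt18, Sox9) for ethanol in Yap KO livers and changed no other count of markers. Same-numbered libraries had a median correlation of deviations of 0.029 over 45 pairs, 6 of them over 0.1. Libraries of other numbers had a median of -0.007 over 90 pairs, 8 of them over 0.1. Of 18 libraries 5 correlated best with their own number. Weak correlations cannot exclude that the numbers pair the samples, and the labels do not say that they do.

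Counts over all genes moved further. With the sex chromosome gene term they were 0 against 1160 for ethanol in Yap KO livers, 2 against 319 for YAP OE against Yap KO over both diets, 0 against 160 on the pair-fed diet, 1 against 17 for YAP OE against control pair-fed, and 86 against 2406 for ethanol over all genotypes. For ethanol in controls Y-linked libraries alone gave 21 against 316. The sex chromosome gene term was estimated from the pair-fed controls alone, so a loss of calls under it cannot decide the part of the split. For ethanol in YAP OE livers the count was 57 with no filter and 267 in the compared groups alone, against 135. For YAP OE against control over both diets it was 0 in Y-linked libraries and 35 by edgeR, against 12, with 2 to over 100 when single libraries were left out. On ethanol that comparison gave 1 with no filter and 22 in Y-linked libraries, against 12, and pair-fed 29 by edgeR, against 17. Yap KO against control gave 0 to 5 in its 3 comparisons, against 1, 1 and 2, and up to 36 with a library left out. The interaction with YAP OE gave up to 3 (27 with a library left out), against 0. Leaving out single libraries gave 49 to 281 for ethanol in controls and 17 to 149 in YAP OE livers. The depth limits Krt19, Krt7, Epcam, Cd24a and Prom1, whose levels lay near that of 3 reads in many libraries.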

Other observations

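Beside the markers, Tgm2, a transglutaminase that crosslinks keratins in hepatocyte inclusions, was at 162, 268 and 268 CPM in ethanol-fed and 137, 307 and 133 CPM in pair-fed YAP OE livers, at 290, 340.1 and 231 CPM in ethanol-fed and 153, 83.8 and 103.1 CPM in pair-fed Yap KO livers, and at 225, 312 and 235 CPM in ethanol-fed and 113.8, 162 and 86.1 CPM in pair-fed controls. It was the 1 of 6 tested genes of keratin aggregates and stress that was called with ethanol in Yap KO livers (1.36 ± 0.31, limma adjusted p = 0.0101), where 9.9% of all genes were called, and 0% with the sex chromosome genes in the fit. Its values were 1.12 ± 0.31 in control livers (limma adjusted p = 0.0607) and 0.35 ± 0.31 in YAP OE livers (limma adjusted p = 0.66), and the interaction with YAP OE was -0.77 ± 0.44 (limma adjusted p = 0.783).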
